A study of Homo sapiens with 6 samples.

Results

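The genes described here are 44 genes of the kinetochore, the spindle and mitotic exit, taken from the 26255 genes for which the files list a value. They were chosen by name for their role in mitosis, with earlier results of these data known. Genes were tested where their mean over the 6 samples reached 1 FPKM, which kept 12729 genes and all of the 44. RNA of 22RV1 cells, a human castration-resistant prostate cancer cell line, was sequenced from 3 samples treated with 10 nM bruceantin (BCT), a plant quassinoid, and 3 treated with its vehicle, DMSO. Both groups were kept in full medium, RPMI with serum, for 24 h, and no group carries a genetic change beyond that of the line. The labels do not say whether samples of a group came from separate cultures, so the p-values measure the spread between these samples, which may be technical. FPKM counts fragments relative to transcript length and to the mapped total of the library, so levels of different genes can be set beside each other.

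The kinetochore is the protein assembly that ties each chromosome to the microtubules of the spindle. Its inner layer is built on nucleosomes that hold the histone variant CENPA, and its outer layer, with the Ndc80 complex at its core, grips the microtubule ends. While any kinetochore is unattached, the spindle checkpoint holds back the anaphase-promoting complex, a ubiquitin ligase. Once it is released, that ligase marks securin for destruction and thereby frees separase, which cuts the cohesin that joins the sister chromatids. Many of these genes are transcribed late in the cell cycle, from promoters that hold a cell cycle genes homology region (CHR) and CCAAT boxes, under repression by the DREAM complex and activation by FOXM1 and B-MYB. In dividing cells of a tumor line their RNA is therefore abundant.

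In BCT-treated cells, 20 of the 44 genes were lower, 1 was higher and 23 were not called, where a call needed an absolute log2 fold change above 0.85 and a false discovery rate (FDR) below 0.05 in limma with Benjamini-Hochberg adjustment over all 12729 genes. Of all tested genes, 17.8% were called lower and 13.9% higher, beside 45.5% and 2.27% of the 44. The largest falls were those of SPC24, MAD2L1, CENPH, SPC25 and CENPU, and the only gene called higher was KIF20B. By the FDR alone, 38 genes were lower, 4 were higher and 2, AURKA and FZR1, did not pass, while the FDR alone was passed by 42.8% of all tested genes in the lower direction and by 39.3% in the higher one. In the same 38 genes every BCT sample lay below every DMSO sample, which held for 44.3% of all tested genes. In the 4 genes KIF20B, CDC27, KIF18A and CDC20 every BCT sample lay above every DMSO sample, which held for 41.0% of all tested genes. Their median log2 fold change was -0.82, beside -0.04 over all tested genes, and the median of their group means was 38.8 FPKM with DMSO and 24.2 FPKM with BCT. RNA of whole cultures cannot tell a smaller share of cells in mitosis from less of these RNAs in each cell.

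These directions depend on how the samples are scaled to each other. Summed over all genes, the FPKM of a DMSO sample came to 1169649 to 1572321 and that of a BCT sample to 757534 to 799838, and MIR6087 alone made up 43.5% to 55.3% and 31.7% to 32.5% of the sum. The values were used as deposited. When every sample was rescaled to the same sum, the median over all tested genes moved to 0.72 and that of the 44 genes to -0.06, with 3 genes called lower (SPC24, MAD2L1 and CENPH) and 4 higher (KIF20B, KIF18A, CDC20 and CDC27). These are 6.82% and 9.09% of the 44, beside 5.25% and 44.1% of all tested genes at that scaling. With MIR6087 left out of the sums, the medians were 0.34 and -0.44, with 9 genes called lower and 2 higher (20.5% and 4.55%, beside 9.49% and 26.5% of all tested genes). Under each of these scalings, the median of the 44 genes was -0.78 relative to that of all tested genes, against -0.79 as deposited. Each time, 38 of the 44 lay below the median of all tested genes. A rescaling shifts all genes of a sample alike, so neither could come out much different, and they are no check of the result.

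**Figure D1:**
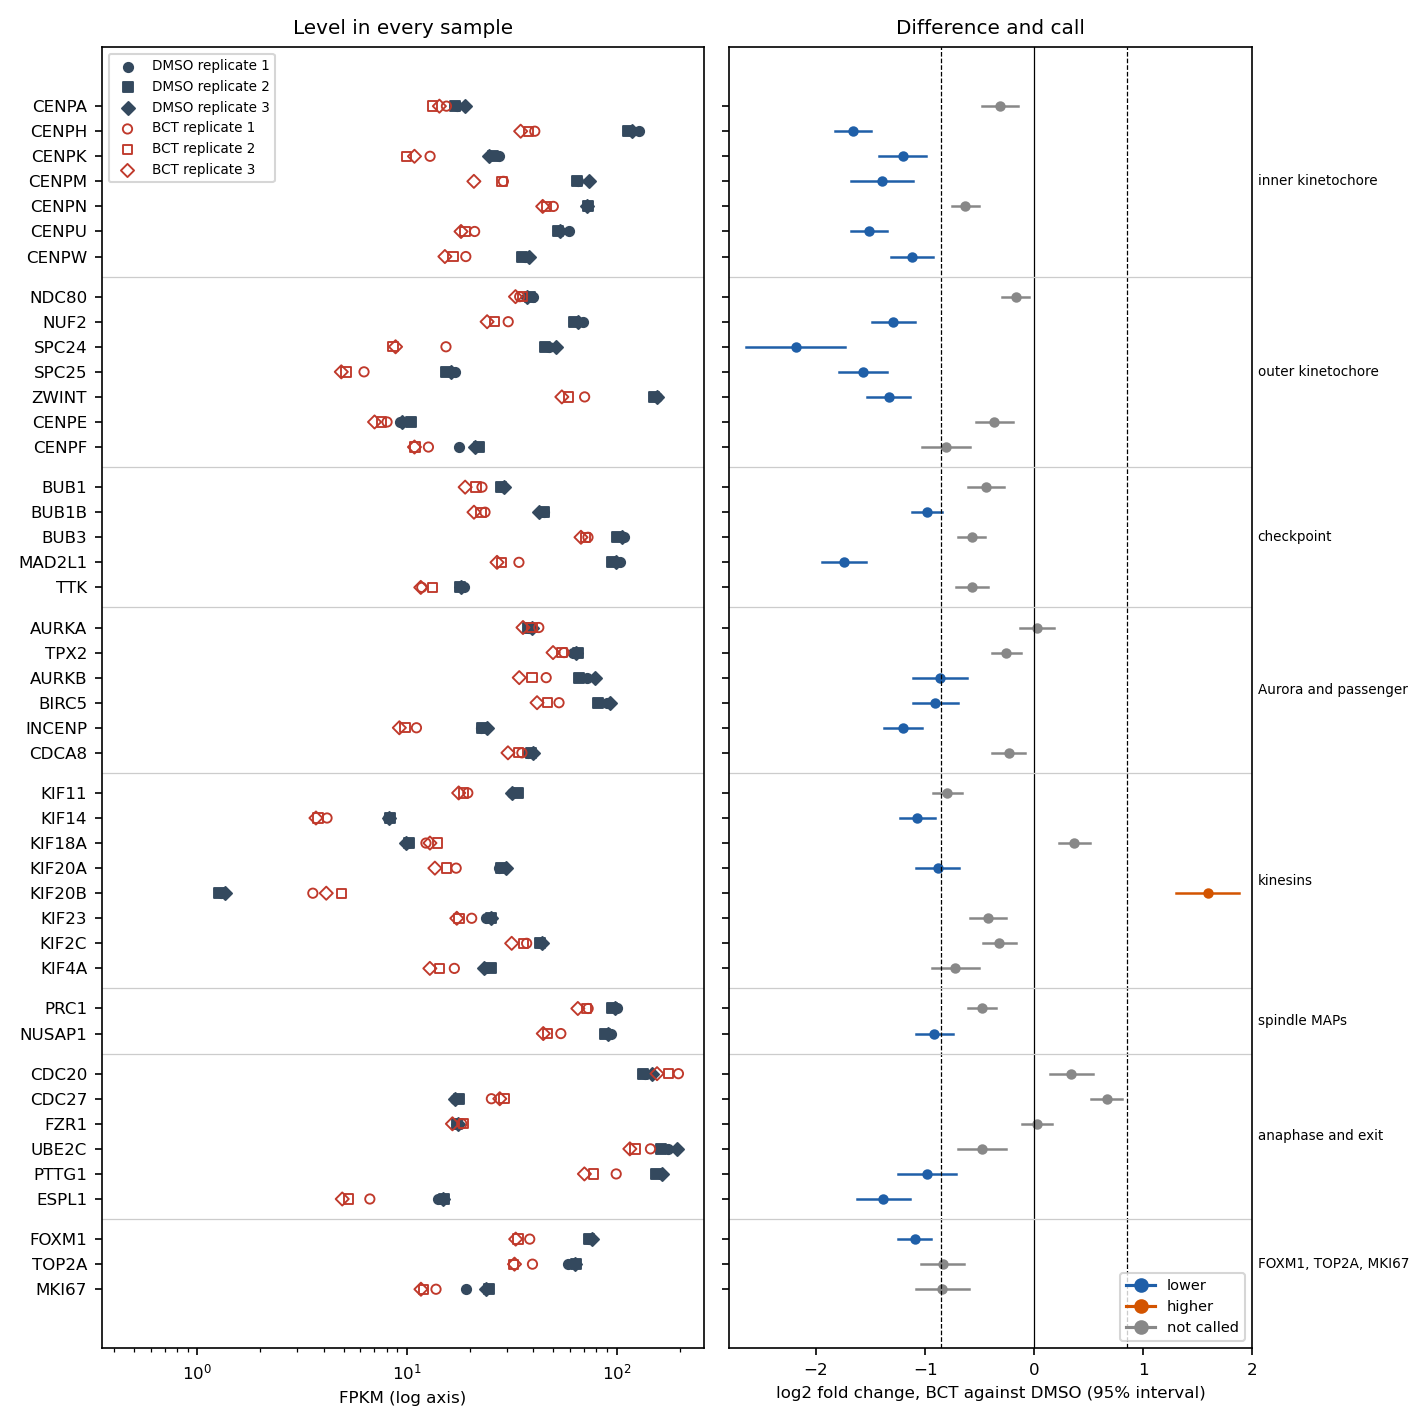
Left, the level of each of the 44 genes in FPKM (log axis) in the 3 DMSO samples (filled) and the 3 BCT samples (open), by role. Right, the log2 fold change of BCT against DMSO with its 95% interval from limma, dashed lines at the fold change threshold of 0.85 on either side, and colors for the call. In the values as deposited, 38 genes have all BCT samples to the left of all DMSO samples, and with equal FPKM sums 14 genes right of the lower dashed line change sign.

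Promoter sequence was at hand for 35 of the 44 genes in a RefSeq table on GRCh38.p14 that covers 250 bases before and 50 bases after each gene's start. CENPH, CENPM, BUB3, TTK, AURKA, TPX2, BIRC5, UBE2C and FOXM1 had no entry. On both strands, a CHR element, read as TTTGAA or TTCGAA, stood in 26 of the 35 promoters, or 74.3%, beside 16.6% of all 27305 promoters of this length and 10.8% of the 9455 that belong to tested genes. A CCAAT box stood in 29, or 82.9%, beside 35.7% of all promoters. In 22 of the 35, or 62.9%, a CHR element began within 50 bases of the start, beside 5.05% of all promoters. The element was in 10 of 16 promoters of genes called lower (62.5%), in 15 of 18 of genes not called (83.3%), and in that of KIF20B. No difference between these classes was tested.

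The stretches shown here run from 120 bases before to 50 bases after the start, and were picked among the 35 genes with an entry, as the 4 with the largest fall, the 4 with the highest fold change and the other 2 subunits of the Ndc80 complex. They lie on GRCh38.p14, on the minus strand at chr19:11155733-11155902 (SPC24), chr4:120066799-120066968 (MAD2L1), chr2:168890381-168890550 (SPC25), chr4:184734047-184734216 (CENPU), chr11:28108107-28108276 (KIF18A) and chr17:47189246-47189415 (CDC27), and on the plus strand at chr1:163321834-163322003 (NUF2), chr18:2571437-2571606 (NDC80), chr1:43358861-43359030 (CDC20) and chr10:89701470-89701639 (KIF20B). Capitals mark CHR elements and CCAAT boxes, in either orientation (TTCAAA and ATTGG are the reversed forms), and each sequence is written along its gene's strand.
SPC24: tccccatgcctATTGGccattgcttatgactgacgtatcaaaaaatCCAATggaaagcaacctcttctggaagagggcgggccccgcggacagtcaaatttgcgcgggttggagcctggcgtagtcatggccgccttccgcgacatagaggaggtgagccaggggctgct
MAD2L1: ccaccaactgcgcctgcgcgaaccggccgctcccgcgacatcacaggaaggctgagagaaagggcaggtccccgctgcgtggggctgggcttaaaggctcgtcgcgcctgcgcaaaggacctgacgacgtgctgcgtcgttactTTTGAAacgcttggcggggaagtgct
SPC25: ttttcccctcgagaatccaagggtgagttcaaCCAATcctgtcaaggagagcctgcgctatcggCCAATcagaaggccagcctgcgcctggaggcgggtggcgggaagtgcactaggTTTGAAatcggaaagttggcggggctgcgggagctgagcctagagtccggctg
CENPU: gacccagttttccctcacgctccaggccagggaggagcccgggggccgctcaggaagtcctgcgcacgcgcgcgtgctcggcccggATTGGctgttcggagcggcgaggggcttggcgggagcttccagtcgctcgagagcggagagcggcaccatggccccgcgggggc
NUF2: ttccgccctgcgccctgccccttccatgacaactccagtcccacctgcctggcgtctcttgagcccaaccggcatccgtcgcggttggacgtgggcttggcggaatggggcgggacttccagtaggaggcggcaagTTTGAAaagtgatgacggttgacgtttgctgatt
NDC80: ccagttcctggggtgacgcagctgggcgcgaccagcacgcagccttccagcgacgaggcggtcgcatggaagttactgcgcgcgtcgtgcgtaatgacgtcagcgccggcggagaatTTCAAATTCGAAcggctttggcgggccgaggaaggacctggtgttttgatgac
CDC20: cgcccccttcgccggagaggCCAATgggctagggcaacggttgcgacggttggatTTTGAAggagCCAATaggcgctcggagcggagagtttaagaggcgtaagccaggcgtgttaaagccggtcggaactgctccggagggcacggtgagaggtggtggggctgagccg
KIF18A: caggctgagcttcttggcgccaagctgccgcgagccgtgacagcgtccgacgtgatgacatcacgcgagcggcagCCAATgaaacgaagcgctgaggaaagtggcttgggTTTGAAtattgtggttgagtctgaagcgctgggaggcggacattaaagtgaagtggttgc
CDC27: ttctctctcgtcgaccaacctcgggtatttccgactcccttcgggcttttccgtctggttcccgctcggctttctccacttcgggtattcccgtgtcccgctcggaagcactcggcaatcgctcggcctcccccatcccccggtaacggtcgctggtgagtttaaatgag
KIF20B: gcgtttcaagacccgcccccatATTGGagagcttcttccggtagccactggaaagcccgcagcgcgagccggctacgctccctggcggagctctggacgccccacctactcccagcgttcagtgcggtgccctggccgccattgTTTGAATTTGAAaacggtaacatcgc
SPC24, with the largest fall, had no CHR element here but 2 CCAAT boxes, and a further box lay upstream of the stretch. NDC80, which encodes a partner of SPC24 in the same complex and hardly moved, held 2 CHR elements side by side at its start. KIF20B, the gene called higher, also held 2 adjoining CHR elements, and CDC27 held no element of either kind in this stretch. A matching run of letters is not by itself a bound site.

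**Figure D2:**
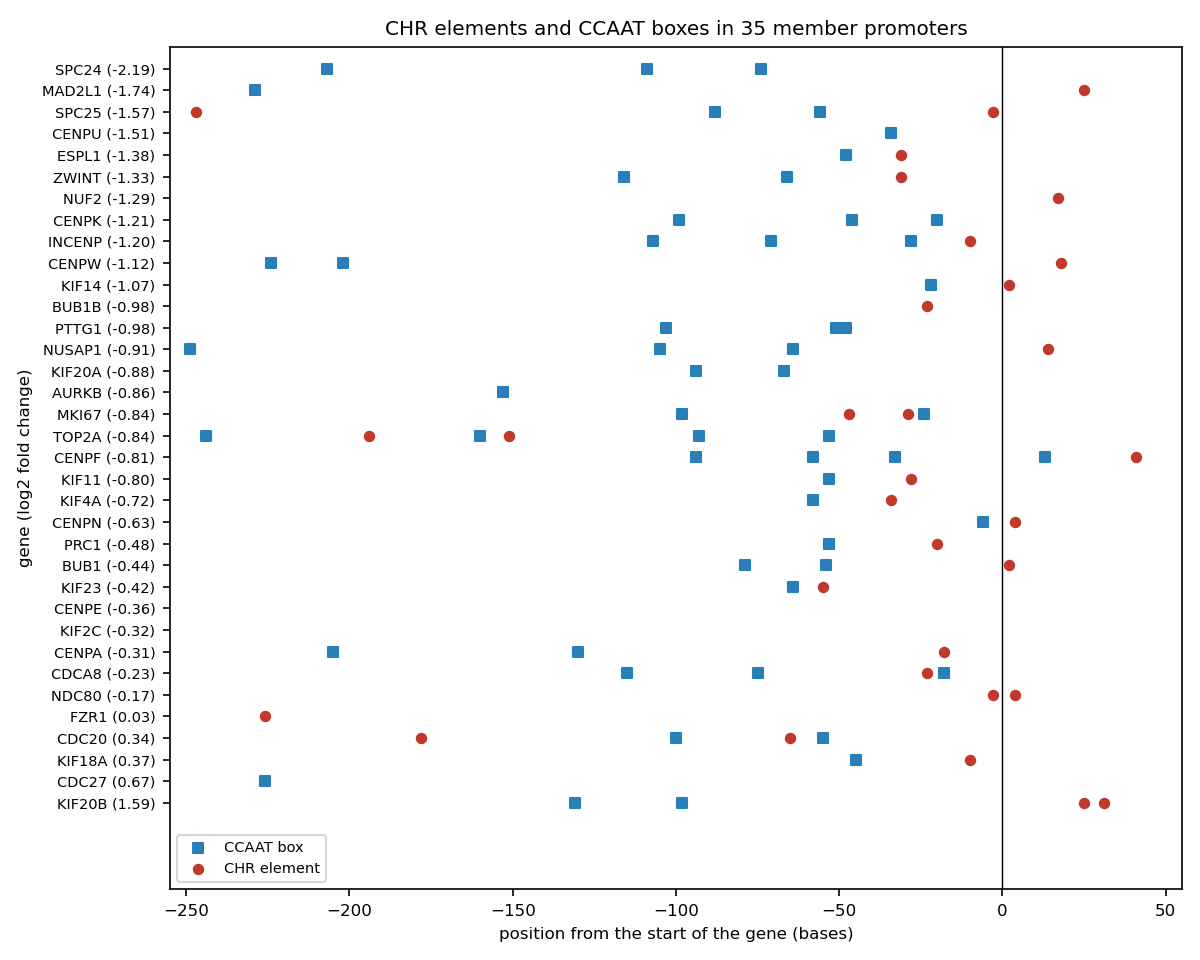
Position of CHR elements (circles) and CCAAT boxes (squares) in bases from the start of the gene, which is the vertical line, for the 35 genes with a promoter entry, ordered by log2 fold change of the deposited values from the largest fall at the top to KIF20B at the bottom. CHR elements gather near the start, within 50 bases in 22 genes, and stand in genes at both ends of the order.

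The inner kinetochore gave 5 of the 20 genes called lower. CENPH, CENPK and CENPU are subunits of the constitutive centromere-associated network (CCAN), as are CENPM, CENPN and CENPW, and all of them except CENPN were called lower. With CENPA included, the median of the 7 log2 fold changes was -1.21 as deposited and -0.44 with equal FPKM sums. CENPH, at chr5:68485375-68506184 on hg19, the build of the files, measured 128, 113 and 119 FPKM in the DMSO samples and 40.7, 37.9 and 34.9 FPKM in the BCT samples. No sample of a group came near the other group, and the mean fell to 31.5% of that with DMSO, a log2 fold change of -1.66 ± 0.07 (SE; limma adjusted p = 6.34e-07). CENPU, which brings the kinase PLK1 to the centromere, measured 59.4, 52.6 and 54.0 FPKM in the DMSO samples and 21.0, 18.9 and 18.1 FPKM in the BCT samples. Its log2 fold change was -1.51 ± 0.07, without overlap between the groups. CENPM fell by 1.40 ± 0.12 on the log2 scale, and BCT replicate 3, at 20.9 FPKM, stood below the 28.8 and 28.4 FPKM of the other BCT samples. CENPK fell by 1.21 on the log2 scale and CENPW, which pairs with CENPT on centromeric DNA, fell by 1.12.

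CENPA, the histone variant that marks the centromere, moved far less than the network built on it. It measured 17.4, 17.0 and 18.9 FPKM in the DMSO samples and 15.4, 13.3 and 14.3 FPKM in the BCT samples. The groups did not overlap, yet its log2 fold change of -0.31 ± 0.07 passed the FDR (limma adjusted p = 0.00349) and not the fold threshold. CENPN, which reads the CENPA nucleosome, had -0.63 ± 0.05 and was not called either. Both values changed sign with equal FPKM sums, to 0.45 for CENPA and 0.14 for CENPN. Outside the 44 genes the network was mixed. CENPI (-1.30), CENPQ (-1.23), STRA13 (-1.52) and APITD1 (-0.93) were called lower. CENPO (-0.66), CENPP (-0.85) and ITGB3BP (-0.67) were lower by the FDR in limma but not called. CENPC (-0.14) and CENPL (-0.04) moved less than CENPA, and CENPT (0.26) went up without being called. Within each sample, the ratio of CENPH to CENPA, which no scaling of whole samples can alter, was 6.77 ± 0.53 (SD, n = 3) with DMSO and 2.65 ± 0.21 (SD, n = 3) with BCT.

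In the outer kinetochore, the subunits of the Ndc80 complex differed. In this complex, NDC80 and NUF2 form the arm that touches the microtubule while SPC24 and SPC25 form the end that docks on the kinetochore. SPC24, at chr19:11257831-11266484 on hg19, measured 47.7, 45.8 and 51.4 FPKM in the DMSO samples and 15.4, 8.59 and 8.82 FPKM in the BCT samples. Every BCT sample was far below the DMSO samples, with BCT replicate 1 the highest of them. The mean fell to 22.6% of that with DMSO, a log2 fold change of -2.19 ± 0.20 (95% interval -2.64 to -1.73, limma adjusted p = 1.38e-05). SPC25 went from 17.0, 15.3 and 16.2 FPKM with DMSO to 6.24, 5.12 and 4.86 FPKM with BCT, and NUF2 from 69.0, 62.7 and 65.8 FPKM to 30.4, 26.2 and 24.1 FPKM. Both fell without overlap between groups, by 1.57 and 1.29 on the log2 scale. NDC80 itself measured 40.0, 38.5 and 37.4 FPKM in the DMSO samples and 34.5, 35.6 and 32.9 FPKM in the BCT samples. Here the groups lay close to each other, and the log2 fold change of -0.17 ± 0.05 passed the FDR (limma adjusted p = 0.0151) but not the fold threshold, and became 0.60 with equal FPKM sums.

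Among the other outer kinetochore genes, ZWINT, which helps to bring the RZZ complex and its dynein adaptors to the kinetochore, was the most abundant at 156, 150 and 156 FPKM with DMSO. It was listed at 70.4, 58.8 and 54.8 FPKM with BCT, and fell by 1.33 ± 0.09 on the log2 scale. The fibrous corona, the outermost and transient layer, was represented by CENPE and CENPF, neither of which was called. CENPE, a kinesin that carries chromosomes to the plate, had a log2 fold change of -0.36 ± 0.07. CENPF, a large dynein- and microtubule-binding protein, measured 17.7, 22.0 and 21.1 FPKM in the DMSO samples and 12.7, 10.9 and 10.9 FPKM in the BCT samples, with a log2 fold change of -0.81 ± 0.10, just short of the fold threshold. It passed when DMSO replicate 1 was left out and likewise when BCT replicate 1 was left out. The median of the 7 outer kinetochore genes was -1.29 as deposited and -0.53 with equal FPKM sums.

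Of the 5 genes of the spindle checkpoint, MAD2L1 and BUB1B were called lower. MAD2L1, which encodes MAD2, the protein that changes shape at unattached kinetochores and captures CDC20, lies at chr4:120980579-120988013 on hg19. Its levels were 104, 95.1 and 99.3 FPKM with DMSO and 34.2, 28.3 and 26.9 FPKM with BCT. The lowest DMSO sample was thus far above the highest BCT sample, and the mean fell to 29.9% of that with DMSO, with a log2 fold change of -1.74 ± 0.09 (95% interval -1.95 to -1.54, limma adjusted p = 1.06e-06). BUB1B, which encodes BUBR1, the subunit of the mitotic checkpoint complex that blocks the anaphase-promoting complex, measured 45.1, 45.1 and 42.5 FPKM in the DMSO samples and 23.6, 22.5 and 20.9 FPKM in the BCT samples. It fell by 0.98 ± 0.06 on the log2 scale, again without overlap.

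The other checkpoint genes were lower by the FDR and not called. BUB3, the adaptor that docks BUB1 and BUBR1 at the kinetochore, had a log2 fold change of -0.57 ± 0.05, from a mean of 105 ± 4.02 FPKM (SD, n = 3) to 70.5 ± 2.73 FPKM (SD, n = 3). TTK, the kinase MPS1 that starts the checkpoint signal, had -0.57 ± 0.06, and BUB1, a kinase at the same platform, had -0.44 ± 0.07. With equal FPKM sums these 3 values became 0.19, 0.19 and 0.32, and the median of the 5 genes moved from -0.57 to 0.19. The ratio of MAD2L1 to BUB3 within a sample was 0.948 ± 0.016 (SD, n = 3) with DMSO and 0.422 ± 0.040 (SD, n = 3) with BCT.

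The chromosomal passenger complex joins the kinase AURKB to INCENP, survivin (BIRC5) and borealin (CDCA8), and corrects faulty attachments. INCENP, its scaffold, measured 22.6, 22.7 and 24.2 FPKM in the DMSO samples and 11.1, 9.80 and 9.20 FPKM in the BCT samples. It fell to 43.3% of the DMSO mean, a log2 fold change of -1.20 ± 0.08 (limma adjusted p = 2.18e-06). BIRC5 measured 90.0, 81.9 and 93.1 FPKM in the DMSO samples and 53.1, 46.9 and 41.7 FPKM in the BCT samples, and fell by 0.91 ± 0.09 on the log2 scale. AURKB measured 72.1, 66.3 and 78.7 FPKM in the DMSO samples and 46.2, 39.5 and 34.3 FPKM in the BCT samples, and at -0.86 ± 0.11 it was the called gene closest to the fold threshold. In both genes the groups stayed apart, and neither call held after correction for GC content and transcript length, where the values were -0.84 for BIRC5 and -0.74 for AURKB. Without BCT replicate 3 both calls were lost as well, at -0.82 and -0.76, and AURKB was also lost without DMSO replicate 3. CDCA8 measured 37.6, 39.2 and 39.9 FPKM in the DMSO samples and 35.4, 34.0 and 30.3 FPKM in the BCT samples, and its log2 fold change of -0.23 ± 0.07 did not reach the fold threshold.

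AURKA, the Aurora kinase of the centrosomes and spindle poles, was one of the 2 genes that did not pass the FDR. It measured 38.4, 37.9 and 39.3 FPKM in the DMSO samples and 42.6, 39.4 and 35.8 FPKM in the BCT samples, so the groups overlapped. Its log2 fold change was 0.02 (95% interval -0.13 to 0.18, limma adjusted p = 0.756), and turned to -0.04 without BCT replicate 1. TPX2, which activates AURKA on spindle microtubules, had -0.26 ± 0.06, not called, from 63.9 ± 1.75 FPKM (SD, n = 3) to 53.6 ± 3.39 FPKM (SD, n = 3). The ratio of AURKB to AURKA within a sample was 1.88 ± 0.12 (SD, n = 3) with DMSO and 1.02 ± 0.06 (SD, n = 3) with BCT. The median of the 6 Aurora and passenger genes was -0.56 as deposited and 0.21 with equal FPKM sums.

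The 8 mitotic kinesins went in both directions, with 2 called lower and 1 called higher. KIF20B, a kinesin of the midzone that acts in the completion of cytokinesis, lies at chr10:91461347-91534700 on hg19 and had the lowest DMSO level of the 44 genes. It measured 1.30, 1.27 and 1.36 FPKM in the DMSO samples and 3.56, 4.86 and 4.12 FPKM in the BCT samples. The BCT samples were all above the DMSO samples and more spread, and the mean reached 320% of that with DMSO. The log2 fold change was 1.59 ± 0.13 (95% interval 1.30 to 1.88, limma adjusted p = 6.37e-06), and it remained called with correction for GC content and transcript length, at 1.30. It also rose under every scaling tried, and it dropped out of the test when a mean of 5 FPKM was required.

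KIF14, which brings the kinase citron to the midbody, measured 8.12, 8.33 and 8.21 FPKM in the DMSO samples and 4.16, 3.76 and 3.68 FPKM in the BCT samples. It fell by 1.07 ± 0.07 on the log2 scale. KIF20A, a relative of KIF20B that moves the passenger complex to the midzone, measured 27.6, 28.0 and 29.7 FPKM in the DMSO samples and 17.2, 15.5 and 13.6 FPKM in the BCT samples. It fell by 0.88 ± 0.08, a call that was lost at -0.80 without BCT replicate 3, so the 2 relatives went in opposite directions, and the ratio of KIF20B to KIF20A was 0.046 ± 0.001 (SD, n = 3) with DMSO and 0.275 ± 0.059 (SD, n = 3) with BCT. The listed range of KIF20A overlaps that of CDC23, whose mean was 26.3 FPKM with DMSO and 34.2 FPKM with BCT, and without strand the reads of the overlap cannot be told apart.

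Among the kinesins not called, KIF11, which slides spindle microtubules apart, had a log2 fold change of -0.80 ± 0.06, and KIF4A, a chromokinesin, had -0.72 ± 0.09. The values of KIF23, the motor of centralspindlin, and of KIF2C, a microtubule depolymerase of the centromere, were -0.42 ± 0.07 and -0.32 ± 0.07. KIF18A, which dampens chromosome movements at the plate, measured 10.1, 10.3 and 9.88 FPKM in the DMSO samples and 12.3, 14.0 and 12.9 FPKM in the BCT samples. All its BCT samples were above the DMSO samples, with a log2 fold change of 0.37 ± 0.06 below the fold threshold, and with equal FPKM sums it was called at 1.13. The median of the 8 kinesins was -0.57 as deposited and 0.19 with equal FPKM sums. Of the microtubule-binding proteins without a motor, NUSAP1, which bundles microtubules near chromosomes, fell by 0.91 ± 0.07, from 94.2, 88.4 and 91.4 FPKM to 54.2, 46.8 and 44.7 FPKM. PRC1, the crosslinker of the midzone, had -0.48 ± 0.06 and was not called.

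The genes of anaphase promotion and mitotic exit ranged in log2 fold change from -1.38 to 0.67, with 2 of 6 called lower. ESPL1, which encodes separase, measured 14.1, 15.0 and 14.9 FPKM in the DMSO samples and 6.65, 5.27 and 4.91 FPKM in the BCT samples. It fell to 38.3% of the DMSO mean, a log2 fold change of -1.38 ± 0.11 (limma adjusted p = 5.70e-06). PTTG1, which encodes securin, the inhibitor and chaperone of separase, measured 164, 154 and 165 FPKM in the DMSO samples and 99.6, 77.5 and 70.2 FPKM in the BCT samples. It fell by 0.98 ± 0.12, and BCT replicate 1 stood apart above the other BCT samples.

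CDC20, the activator that turns the anaphase-promoting complex on at the end of the checkpoint, measured 136, 134 and 148 FPKM in the DMSO samples and 197, 177 and 156 FPKM in the BCT samples. The groups did not overlap, the nearest samples being DMSO replicate 3 and BCT replicate 3, and the log2 fold change of 0.34 ± 0.09 passed the FDR (limma adjusted p = 0.00580) but not the fold threshold. CDC27, a structural subunit of that ligase, measured 17.0, 17.7 and 16.9 FPKM in the DMSO samples and 25.3, 29.0 and 27.7 FPKM in the BCT samples, with a log2 fold change of 0.67 ± 0.06 that was not called. Both were called higher with equal FPKM sums, at 1.11 and 1.43. FZR1, which encodes CDH1, the activator that takes over from CDC20 late in mitosis, measured 17.3, 17.4 and 17.6 FPKM in the DMSO samples and 18.3, 18.6 and 16.5 FPKM in the BCT samples. Its groups overlapped, and the log2 fold change was 0.03 (95% interval -0.11 to 0.16, limma adjusted p = 0.687). After correction for GC content and transcript length, FZR1 was 0.36 and passed the FDR (limma adjusted p = 0.000437), still under the fold threshold. UBE2C, the ubiquitin-conjugating enzyme of the ligase and the most abundant of the 44 genes with DMSO, had a log2 fold change of -0.48 ± 0.10, from 178 ± 16.0 FPKM (SD, n = 3) to 128 ± 15.4 FPKM (SD, n = 3), and was not called. The median of the 6 genes was -0.23 as deposited, and became 0.16 with equal sums without MIR6087 and 0.54 with equal sums.

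FOXM1, the transcription factor that drives many genes of this set, measured 74.2, 74.2 and 76.6 FPKM in the DMSO samples and 38.5, 33.9 and 33.0 FPKM in the BCT samples. It fell to 46.9% of the DMSO mean, a log2 fold change of -1.09 ± 0.06 (limma adjusted p = 1.73e-06). TOP2A, which untangles sister chromatids, and MKI67, which coats mitotic chromosomes and is the common proliferation marker, lay just outside the fold threshold. TOP2A measured 58.7, 64.2 and 63.5 FPKM in the DMSO samples and 39.7, 32.3 and 32.6 FPKM in the BCT samples, and MKI67 at 19.1, 24.7 and 23.7 FPKM and at 13.8, 12.0 and 11.7 FPKM. In each, replicate 1 of both groups lay toward the other group, and the log2 fold changes were -0.84 ± 0.09 and -0.84 ± 0.11. Both were called lower without DMSO replicate 1, without BCT replicate 1, and after correction for GC content and transcript length, at -1.05 for each. Just inside the threshold stood AURKB (-0.86), KIF20A (-0.88), BIRC5 (-0.91) and NUSAP1 (-0.91), and just outside it MKI67 (-0.84), TOP2A (-0.84), CENPF (-0.81) and KIF11 (-0.80).

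Ratios between genes of one complex or step, taken within each sample, do not depend on the scaling of whole samples. The pairs were picked with the values known, so the ratios are a description and were not tested. SPC24 to NDC80 was 1.19, 1.19 and 1.38 with DMSO and 0.445, 0.242 and 0.268 with BCT, and the BCT mean was 25.4% of the DMSO mean. The same share was 37.6% for SPC25 to NDC80 and 46.0% for NUF2 to NDC80. SPC24 and SPC25, which bind each other, were closer, with a ratio of 2.99 ± 0.18 (SD, n = 3) with DMSO and 1.98 ± 0.42 (SD, n = 3) with BCT. INCENP to CDCA8, both subunits of the passenger complex, was 0.595 ± 0.014 (SD, n = 3) with DMSO and 0.302 ± 0.013 (SD, n = 3) with BCT. Separase and securin kept nearer to each other, as ESPL1 to PTTG1 was 0.0912 ± 0.0059 (SD, n = 3) and 0.0682 ± 0.0016 (SD, n = 3). CDC20 to PTTG1, an activator beside one of its targets, was 0.831, 0.871 and 0.894 with DMSO and 1.98, 2.29 and 2.22 with BCT. Of the 20 pairs computed, the groups overlapped in 1, CDC27 to CDC20.

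The BCT samples kept an order across the genes. BCT replicate 1 was the highest of the BCT samples in 36 of the 38 genes whose BCT samples all lay below DMSO, and BCT replicate 3 was the lowest in 34 of them. The median log2 difference of the 44 genes from the DMSO means was -0.66, -0.87 and -0.91 in BCT replicates 1, 2 and 3. Over all tested genes it was between -0.05 and -0.02, but a median over genes that move both ways cannot show such an order. Log2 levels of all tested genes in BCT replicate 1 correlated with the DMSO samples at 0.892 to 0.896. For BCT replicates 2 and 3 the correlations were 0.851 to 0.855 and 0.852 to 0.857, so replicate 1 was closer to DMSO there too. Without BCT replicate 1, 23 of the 44 genes were called lower, and the same number was called without DMSO replicate 1. Samples of one group have no order in the design, and the source of this difference was not tested.

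A list used to assign cells to the G2 and M phases (the G2/M list of the Seurat package) holds 21 of the 44 genes. Of these, 4 were called lower and 1 higher (19% and 4.76%, beside 17.8% and 13.9% of all tested genes), with a median log2 fold change of -0.44. Of the other 23 genes, 16 (69.6%) were called lower and none higher (2 by the FDR alone in limma), with a median of -1.10. CENPU stands in the S phase list of the same package. Membership was not tested, and the list holds 1 of the 7 inner kinetochore genes, 4 of the 7 outer kinetochore genes and 4 of the 8 kinesins.

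Further genes of the mitotic machinery were drawn from a list of 104, all of which were tested. As deposited, 25 were called lower and 3 higher (24.0% and 2.9%, beside 17.8% and 13.9% of all tested genes), with a median log2 fold change of -0.52. With equal FPKM sums, 3 were called lower and 17 higher (2.88% and 16.3%, beside 5.25% and 44.1% of all tested genes). Of 28 further kinetochore subunits, 7 (25%) were called lower and none higher, with a median of -0.67. By the FDR alone in limma, 22 were lower and 2 higher. Among the 7 were CENPV (-1.94) and STRA13 (-1.52), a partner of the CCAN on DNA also known as CENPX. DSN1 (-1.31), a subunit of the Mis12 complex that receives SPC24 and SPC25, was also among them. The other Mis12 subunits did not fall and were not called, at 0.57 for MIS12, 0.12 for PMF1 and 0.02 for NSL1. Of 15 mitotic entry kinases and cyclins, 4 (26.7%) were called lower, including CCNA2, cyclin A2 (-1.46), PKMYT1, an inhibitory kinase of CDK1 (-1.09), and CCNF (-0.93). Of 24 further spindle and cytokinesis genes, 6 (25%) were called lower, including the minus-end kinesin KIFC1 (-1.20), PSRC1 (-1.03) and the spindle protein TACC3 (-1.01).

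The checkpoint, ligase and cohesin genes beyond the 44 were less uniform. TRIP13, the ATPase that opens MAD2 and takes the checkpoint complex apart, had the largest fall of the 104, from 37.5 ± 0.53 FPKM (SD, n = 3) to 9.20 ± 2.42 FPKM (SD, n = 3), or -2.04 ± 0.15, and it was the only one of 5 further checkpoint genes to be called. None of 15 further subunits and regulators of the anaphase-promoting complex fell past both thresholds in limma, although 9 were lower by the FDR alone, and ANAPC10, a substrate-binding subunit, rose by 1.31 ± 0.08. Of 17 condensin and cohesin genes, 7 were called lower and 2 higher (41.2% and 11.8%, beside 17.8% and 13.9% of all tested genes). The condensin subunits NCAPH (-1.66) and NCAPD3 (-1.34) were among the former, and the cohesin regulators PDS5B (1.48) and WAPAL (0.91) were the latter. For comparison, 34 of 36 genes of DNA replication at the G1/S transition were called lower and none higher by either rule in limma, with a median of -1.70 as deposited, led by GINS2 (-2.91), UNG (-2.47) and CDC6 (-2.18), and 20 were called lower with equal FPKM sums. A CHR element stood in 2 of 30 promoters of these replication genes (6.67%) and in 42 of 86 promoters of the further mitotic genes (48.8%). An E2F site, read as TTCGCGC or TTGGCGC, stood in 13 of the 30 (43.3%) and in 18 of the 86 (20.9%). It was in 5 of the 35 promoters of the 44 genes (14.3%), beside 8.84% of promoters of tested genes. Of those 5, 4 belonged to the 16 genes called lower and 1 to the 18 not called. The difference between the lists was not tested.

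**Figure D3:**
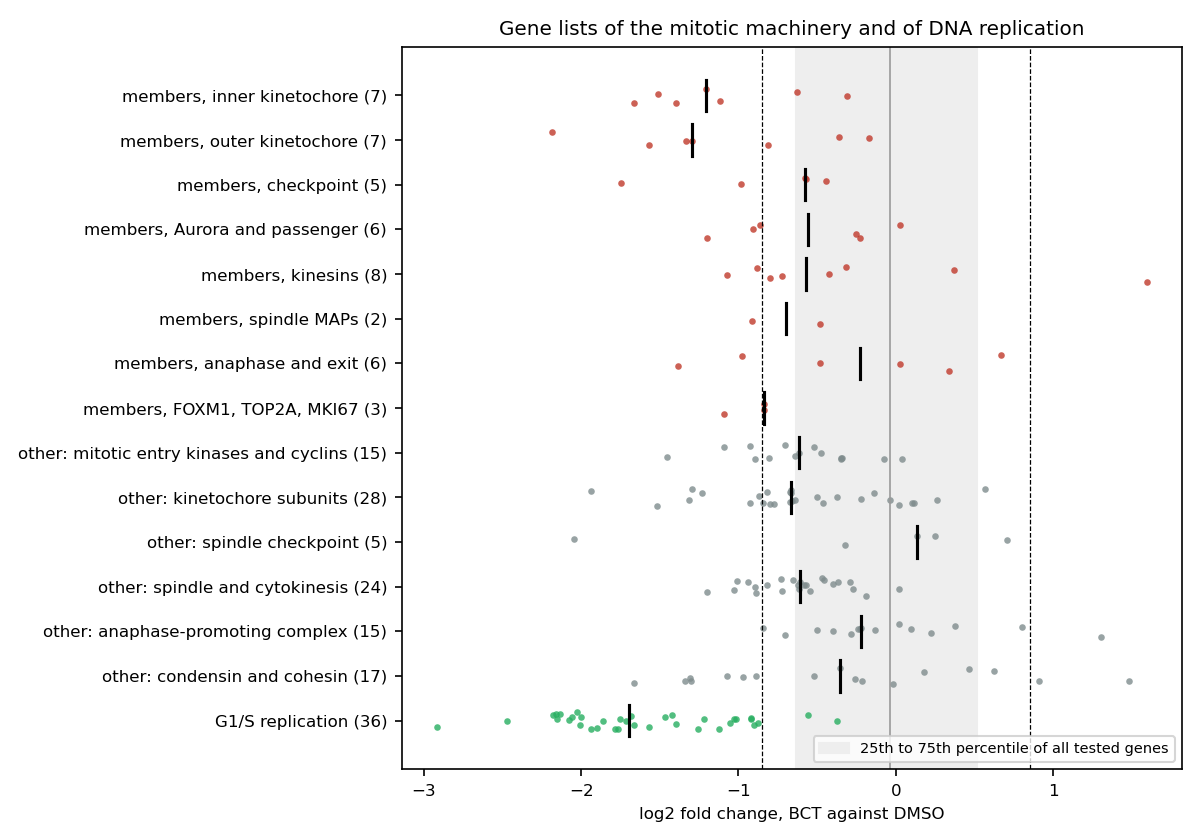
Log2 fold change of BCT against DMSO (as deposited) for each gene (points), with the number of genes in parentheses and a black bar at the median of each list. The grey band runs from the 25th to the 75th percentile of all tested genes and dashed lines mark the fold change threshold. By median, the inner and outer kinetochore lists of the 44 genes and the 36 G1/S replication genes lie furthest left. With equal FPKM sums the medians of the checkpoint, Aurora, kinesin, spindle and anaphase lists of the 44 genes are above 0.

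In the plot of scalings, the median of all tested genes changed sign. Its distance from the median of the 44 genes was bound to stay, since a rescaling shifts all genes of a sample alike. Rescaling by the median of ratios or to equal upper quartiles left 18 genes called lower, with AURKB and KIF20A no longer called. With correction for GC content and transcript length, 22 were called lower, as AURKB and BIRC5 were lost and CENPF, KIF11, TOP2A and MKI67 were gained.

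The samples carried the markers of the line. The summed level of 8 prostate epithelial and luminal markers was 897 to 909 FPKM with DMSO and 1872 to 2054 FPKM with BCT, and the lowest of the 8, KLK3, measured 8.03 to 9.76 FPKM and 0.863 to 1.32 FPKM. That of 5 fibroblast markers was 2.57 to 2.73 FPKM and 5.83 to 7.03 FPKM. Of these, COL1A1 rose from a mean of 1.43 FPKM to 5.83 FPKM, while LUM fell from 1.01 FPKM to 0.574 FPKM. Summed, 5 leukocyte markers reached 0.379 to 0.721 FPKM and 0.535 to 0.969 FPKM. The sum of 4 endothelial markers did not exceed 0.081 FPKM in any sample. The part of these differences in the results was not tested. The listed ranges of 7 of the 44 genes overlap another gene (CENPN, CENPU, BUB1B, KIF18A, KIF20A, PRC1 and FOXM1), and 11 have a pseudogene named after them, 5 in the case of UBE2C, whose reads the counting could share. The close relatives PTTG2 and KIF4B stayed at or below 0.06 FPKM in every sample, and AURKC lay at 0.242 to 0.428 FPKM.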

How the data were processed

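RNA-seq was analysed in 3 BCT and 3 DMSO samples of 22RV1 cells. Per the labels and methods, the authors prepared TruSeq libraries, trimmed reads with Trimmomatic (0.38), aligned them to hg19 with HISAT2 and assembled transcripts with StringTie, and deposited FPKM values per gene; the labels also name HTSeq. The gene annotation, the strand setting and the authors' test for genes are not given in the sources used here. FPKM values hold no read counts, so depth in reads is unknown here. The most common ratio between samples among low values gave relative depths of 0.874 to 1 with DMSO and 1.05 to 1.13 with BCT.

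Genes averaging at least 1 FPKM were tested with limma (3.58.1, R 4.3.3; mean-variance trend) on log2(FPKM + 0.1), a scale that understates changes of low genes, with Benjamini-Hochberg adjustment. Any of the 44 genes could be named. Of the further lists, at most 3 called genes per list with the largest change and without overlap were named, plus called genes that went against most of their list. Further subunits of the CCAN and the Mis12 complex were named beside these to show their spread. GC content and length came from GENCODE v44lift37, matched for 97.4% of tested genes. Shown promoter stretches and the ratio pairs were chosen after values were seen. The 44 genes and all lists were chosen with earlier results of these data known. Same-numbered samples had deviations correlated at 0.116, 0.033 and 0.034, not all above the level of 0.1 required for pairing, so no block was used. Alternatives covered pseudocount, filter, scaling, thresholds, variance model, GC and length correction, replicate block and leaving out each sample.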

Additional observations from a re-analysis of the deposited data

How the results depend on the processing

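Over 21 alternatives, 923 values of single genes among the 44 were recomputed, of which 835 kept their direction and side of the thresholds, 48 were no longer called, 18 became called and 22 changed sign. The scaling of the samples moved most, and it acts on every gene of a sample alike. With equal FPKM sums, 668 of all tested genes were called lower and 5609 higher, 3 of the 44 lower and 4 higher (median -0.059), 3 further mitotic genes lower and 17 higher, and 20 G1/S genes lower. Log2 fold changes that changed sign were CENPA 0.45, CENPN 0.14, NDC80 0.60, CENPE 0.40, BUB1 0.32, BUB3 0.19, TTK 0.19, TPX2 0.51, CDCA8 0.54, KIF23 0.34, KIF2C 0.45, KIF4A 0.042, PRC1 0.29 and UBE2C 0.29. With equal sums without MIR6087, the counts were 1208 and 3369 of all genes, 9 and 2 of the 44 (median -0.44), and 10 and 8 further mitotic genes, and the sign changed for CENPA (0.074), NDC80 (0.22), CENPE (0.019), TPX2 (0.13), CDCA8 (0.16) and KIF2C (0.067). Without a filter 2657 genes were called higher, and with a mean of at least 5 FPKM 1150, with 0 of the 44 since KIF20B was not tested. Tested against the fold threshold itself, 1392 genes were lower and 1033 higher, with 14 of the 44 and 14 further mitotic genes lower. Leaving out each sample gave 17 to 23 of the 44 lower and 1 higher, medians of -0.90 to -0.77, and AURKA from -0.036 (without BCT replicate 1) to 0.088 and FZR1 from -0.0069 (without BCT replicate 2) to 0.080. Without DMSO replicate 3, AURKB was lost, and without BCT replicate 3, AURKB, BIRC5 and KIF20A. With the replicate block, 20 of the 44 were lower and 1 higher, the same genes, and 4 of 6 samples correlated best with their own number. Genes of few FPKM, such as KIF20B, rest on fewer reads, and the depth is not known in reads.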
